A study of Homo sapiens with 6 samples.

Results

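The replication-dependent histone genes were taken as every gene on the array whose symbol begins with HIST1H, HIST2H or HIST3H in the older naming, or is H1-1 to H1-5 or H2AC, H2BC, H3C or H4C with a number in the current naming. Only probes annotated to 1 gene were used, and the brightest probe stood for each gene. This gave 63 genes, read by 69 probes, of 18665 named genes and 48803 probes on the array. Gene expression was profiled in KY170R, a radioresistant line obtained by continuous fractionated irradiation of esophageal squamous cancer cells, and in KY170, the parental radiosensitive line (kyse170R and kyse170 in the labels). Each line was measured at 0, 8 and 24 h after irradiation with a 6MV-X-ray linear accelerator, on 1 Illumina Human-6 V3 bead array per line and time point (6 arrays). The sources leave unclear whether the 0 h cells were taken just before or just after irradiation, and every change over time is given relative to them. Both lines were grown in the same medium with serum, penicillin and streptomycin. The labels and methods do not state the dose of the array experiment, cells left unirradiated for 8 or 24 h were not measured, and KY170R is a single derived line, so that its differences from KY170 are those of that line.

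Nucleosomes are built from histones H2A, H2B, H3 and H4, and histone H1 binds the DNA that links them. The replication-dependent genes supply the bulk of these proteins while DNA is copied in S phase. They lie in clusters, most of them in the HIST1 cluster on chromosome 6 and fewer in HIST2 and HIST3 on chromosome 1. Their transcription is driven by the coactivator NPAT, and their mRNAs end in a stem-loop, bound by SLBP, in place of the poly(A) tail of other mRNAs. Several of them, such as H2BC12, H2BC5, H2BC21, H2AC6 and H1-2, are also known to give polyadenylated transcripts. The labels name reverse transcription as the first labelling step but not its primer, so how fully mRNAs without a tail were labelled is not known here.

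Promoter sequence was available from RefSeq (GRCh38.p14) for 58 of the 63 genes, as 250 bases before and 50 bases after the start. The CCAAT motif, on either strand, was present in 84.5% of these promoters, against 34.6% of all 35116 promoters of the same length. It was in every H1, H2A, H2B and H3 promoter matched and in 25.0% of the H4 promoters. The TATAAA motif, on the gene strand, was in 60.3%, against 7.33% of all promoters. The octamer ATTTGCAT, on either strand, was in 43.1%, against 1.77% of all promoters, with 77.8% of the H2B and 71.4% of the H2A promoters holding it and none of the H1 or H4 promoters. The 250 bases before the start are shown for 4 genes of the HIST1 cluster that differed in their time course, H4C12 with the largest fall, H4C8 with a peak at 8 h, and H2BC8 and H2BC11 with a fall seen at 24 h. Capitals mark these 3 motifs and no marked motif overlaps another. All 4 lie on the minus strand, H4C12 at chr6:27831561-27831810, H4C8 at chr6:26285535-26285784, H2BC8 at chr6:26216689-26216938 and H2BC11 at chr6:27132796-27133045.
H4C12: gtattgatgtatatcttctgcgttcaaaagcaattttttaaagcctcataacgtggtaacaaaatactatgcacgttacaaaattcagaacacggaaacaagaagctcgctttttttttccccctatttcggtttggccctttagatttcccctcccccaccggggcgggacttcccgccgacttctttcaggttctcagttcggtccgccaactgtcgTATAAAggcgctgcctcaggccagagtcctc
H4C8: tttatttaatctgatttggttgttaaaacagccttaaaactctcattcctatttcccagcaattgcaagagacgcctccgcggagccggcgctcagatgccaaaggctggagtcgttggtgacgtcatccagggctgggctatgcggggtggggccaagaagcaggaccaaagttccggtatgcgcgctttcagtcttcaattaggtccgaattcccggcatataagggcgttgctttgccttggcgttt
H2BC8: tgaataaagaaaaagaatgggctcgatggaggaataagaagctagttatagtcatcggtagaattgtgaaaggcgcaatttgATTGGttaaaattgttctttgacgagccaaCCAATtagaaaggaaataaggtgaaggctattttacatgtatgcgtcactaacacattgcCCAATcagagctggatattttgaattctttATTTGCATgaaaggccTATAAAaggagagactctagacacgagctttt
H2BC11: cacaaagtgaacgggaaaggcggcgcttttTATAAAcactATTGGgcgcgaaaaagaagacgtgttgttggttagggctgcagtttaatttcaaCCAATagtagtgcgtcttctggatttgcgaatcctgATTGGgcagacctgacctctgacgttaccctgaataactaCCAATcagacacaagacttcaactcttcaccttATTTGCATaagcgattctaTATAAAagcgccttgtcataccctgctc
The TATAAA nearest the start began 31 bases before it in H4C12, 32 bases in H2BC8 and 28 bases in H2BC11, and the H4C8 window held none of the 3 motifs. A match says only that these letters are present.

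Each histone gene was read through its brightest probe, and why some of these probes stayed near background was not tested. Intensities were deposited with the background subtracted, and a value counted as above background if it exceeded 10.8 intensity units, the size that 95% of all values below 0 stayed within. Of the 63 genes, 30 were above this limit on all 6 arrays, 17 on 1 to 5 arrays and 16 on none. The 30 comprised 1 H1, 7 H2A, 10 H2B, 7 H3 and 5 H4 genes. By cluster they comprised 22 of 52 HIST1 genes, 6 of 8 HIST2 genes and both HIST3 genes, and the 1 HIST4 gene, on chromosome 12, was above the limit on no array. A mean at or above the limit was reached by 38 genes, which were tested with 20620 probes in all. The other 25 genes included H1-4, H1-5, H2BC4 and H3C12, the last with the highest single value among them, 32.6. Intensities of different probes cannot be set against each other. Genes of the same core histone class are alike in coding sequence, so that a probe may read more than the gene it is named for. Which genes each probe reads was not checked. H2AC18, H4C14 and H3C13 have near-identical copies in the same cluster, and 1 further probe, annotated to both H3C11 and H3C6, was left out.

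The arrays themselves were alike in scale, with medians of 6.46 to 6.47 and 42.3% to 42.4% of probes above the limit. Across tested probes, arrays of the same time correlated at 0.965 to 0.977, and a 0 h array and a later one of the same line at 0.897 to 0.927 (probes are not independent replicates). Of the squamous epithelial markers, 8 of the 9 on the array were above the limit on all 6 arrays, whereas 1 of 6 fibroblast markers was and COL1A2, COL3A1, LUM and PDGFRB were above it on none. Of the endothelial markers 1 of 4 was above the limit on all arrays and KDR on none, and of the immune cell markers 2 of 6 were above it on all arrays and each was above it on at least 1. No slide or scan order is known for these arrays, so that an array and its condition cannot be told apart.

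The first question was how histone mRNA changed after irradiation. At 24 h, most of the histone genes that could be measured were lower than at 0 h in both lines. Of 38 tested genes, 21 fell and 1 rose (limma, adjusted p under 0.05), which is 55.3% lower, whereas 22.0% of all tested probes fell and 23.1% rose. The median change was -1.17 on the log2 scale, against -0.13 over all tested probes. Among the 30 genes above the limit on all arrays, 17 fell and 1 rose, with the same median of -1.17. H2AC13, H2BC9, H4C11 and H4C2 reached the limit on average only through their 0 h arrays, so that a fall was favoured by their selection, and without them 18 of 34 genes fell and 1 rose, with a median of -1.10. Both 24 h arrays lay below both 0 h arrays for 25 of the 38 genes, against 36.1% of all tested probes. These 25 included H2AC13, H2BC9, H4C11 and H4C2, whose selection favoured this pattern. Falls were called for 6 of 8 H2A genes, 5 of 7 H4 genes, 5 of 11 H2B genes, 4 of 9 H3 genes and 1 of 3 H1 genes. The counts by class include H2AC13, H4C11 and H2BC9. With the floor raised to 2 times the limit, 12 genes were called at 24 h in place of 22. In this design the 2 lines stand in for replicates of a time point, and fewer cells in S phase and less histone mRNA per cell cannot be told apart.

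**Figure D1:**
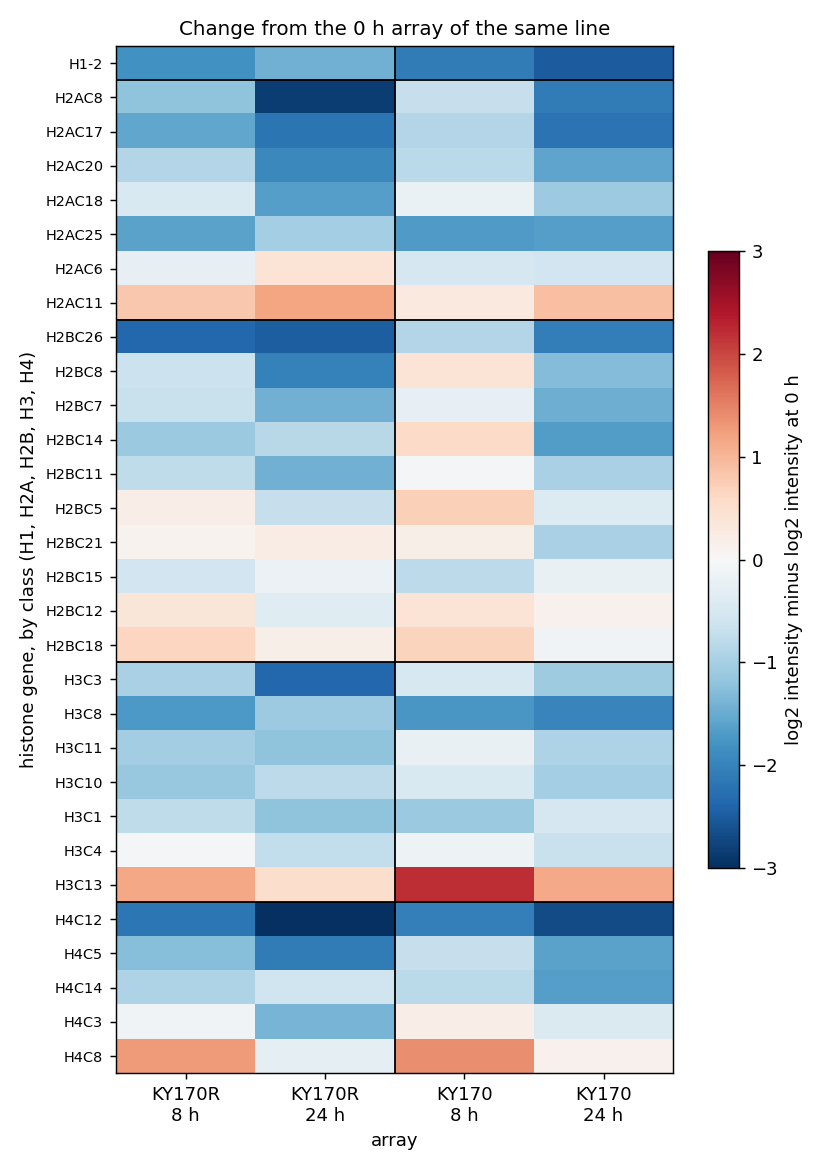
Change in log2 intensity from the 0 h array of the same line (colour, red higher and blue lower than at 0 h) for the 30 histone genes above the background limit on all 6 arrays, by class from top to bottom and, within a class, by the mean change at 24 h; columns are the KY170R and KY170 arrays at 8 and 24 h. At 24 h, 25 of the 30 genes were below their 0 h level in KY170R and 26 in KY170.

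In 10 genes the fall was already called at 8 h. H4C12, which encodes histone H4, had the largest fall, with intensities of 1062, 236 and 128 in KY170R and 783, 190 and 121 in KY170 at 0, 8 and 24 h. It was 4.31-fold lower at 8 h (log2 -2.11 ± 0.27 SE, adjusted p = 1.6e-04, limma) and 7.33-fold lower at 24 h (log2 -2.87 ± 0.27 SE, adjusted p = 3.2e-05, limma). No later array reached either 0 h array. The linker histone gene H1-2 had 781, 222 and 285 in KY170R and 689, 160 and 122 in KY170, 3.89-fold lower at 8 h and 3.93-fold lower at 24 h (adjusted p = 4.8e-04 and 3.6e-04). H2AC25, the H2A gene of the HIST3 cluster, had 2474, 810 and 1212 in KY170R and 1750, 543 and 553 in KY170, 3.14-fold lower at 8 h and 2.54-fold lower at 24 h (adjusted p = 3.0e-04 and 7.5e-04). Both genes were higher at 24 h than at 8 h in KY170R, but neither difference between 24 and 8 h passed the test. H2AC20 had 3184, 1740 and 829 in KY170R and 1827, 1042 and 613 in KY170, and was the only gene of the 10 that also fell between 8 and 24 h (1.89-fold, adjusted p = 0.0204). It was 3.38-fold lower at 24 h than at 0 h (log2 -1.76 ± 0.21 SE, adjusted p = 1.0e-04).

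Of the other 6 genes called lower at 8 h, 3 were not above the limit on every array. H3C8 had 779, 236 and 363 in KY170R and 363, 109 and 92.7 in KY170 at 0, 8 and 24 h, 3.32-fold lower at 8 h (adjusted p = 0.00102) and 2.90-fold at 24 h (adjusted p = 0.00167). Its KY170R array at 24 h was at the level of the KY170 array at 0 h, so that the times overlapped between lines while each line was lower than its own 0 h array. H2AC17 had 195, 66.3 and 42.7 in KY170R and 88.4, 47.7 and 19.1 in KY170, a 4.60-fold fall at 24 h (adjusted p = 7.6e-04). H2BC26, the H2B gene of the HIST3 cluster, had 100.2, 19.7 and 18.0 in KY170R and 45.8, 25.0 and 10.9 in KY170, a 4.84-fold fall at 24 h (adjusted p = 0.00211). H3C7 was below the limit on the KY170 array at 24 h, with 204, 50.0 and 58.2 in KY170R and 94.6, 26.9 and 5.47 in KY170, and fell 5.54-fold with that value raised to the limit (adjusted p = 9.6e-04). These 4 genes encode H3, H2A and H2B proteins of the nucleosome core. H2BC9 had 63.0, 9.88 and 18.1 in KY170R and 53.7, 2.99 and 8.95 in KY170. Both of its 8 h arrays were below the limit, so that it was at least 5.37-fold lower at 8 h (adjusted p = 0.00107). H2BC9 and H2AC13 were tested only through their high 0 h values, and their falls are therefore given as a description. H2AC13 had 31.5, 14.1 and -0.54 in KY170R and 49.7, 3.89 and 3.71 in KY170, and was at least 3.65-fold lower at 24 h, where both arrays were below the limit (adjusted p = 0.00446).

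A further 11 genes fell at 24 h without passing the test at 8 h. H4C3 gave 28582, 26732 and 10866 in KY170R and 25776, 29603 and 19105 in KY170 at 0, 8 and 24 h. Its level at 8 h stayed near that at 0 h (log2 0.05 ± 0.18 SE), and it was then 1.95-fold lower at 24 h than at 8 h (adjusted p = 0.0104) and 1.88-fold lower than at 0 h (adjusted p = 0.00187). H2AC18, a HIST2 gene, had 3313, 2427 and 1059 in KY170R and 1593, 1394 and 750 in KY170, 2.58-fold lower at 24 h than at 0 h (adjusted p = 4.3e-04) and 2.06-fold lower than at 8 h (adjusted p = 0.0130). A second H2AC18 probe ran in the same way, with 2880, 2150 and 859 in KY170R and 1438, 1101 and 648 in KY170. H2AC8 had 256, 111 and 35.5 in KY170R and 95.6, 59.1 and 22.3 in KY170, 5.56-fold lower at 24 h (log2 -2.47 ± 0.37 SE, adjusted p = 3.1e-04). H2BC8 had 255, 164 and 62.4 in KY170R and 96.6, 128 and 39.3 in KY170, 3.17-fold lower at 24 h (adjusted p = 0.00287). In all 4 genes both 24 h arrays lay below both 8 h and both 0 h arrays. H2BC11 had 1128, 668 and 415 in KY170R and 637, 612 and 327 in KY170, 2.30-fold lower at 24 h (adjusted p = 0.00236).

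The other 6 genes called lower at 24 h but not at 8 h were genes of the nucleosome core. Missing the test at 8 h does not place a fall after 8 h. None of these 6 was called between 8 and 24 h. The log2 change of H3C10, for example, was -0.79 at 8 h and -0.90 at 24 h, and that of H3C3 was -0.72 and -1.71. H4C5 had 73.9, 30.5 and 17.3 in KY170R and 40.4, 25.2 and 13.3 in KY170 (3.60-fold lower at 24 h, adjusted p = 0.00399). H3C3 had 132, 67.8 and 25.9 in KY170R and 89.8, 64.3 and 42.5 in KY170 (3.28-fold lower, adjusted p = 0.00489). H2BC7 had 57.1, 36.0 and 21.0 in KY170R and 61.7, 52.0 and 22.5 in KY170 (2.73-fold lower, adjusted p = 0.0116). In these 3 genes both 24 h arrays were below both 0 h arrays. H4C14 had 323, 169 and 212 in KY170R and 158, 90.7 and 50.1 in KY170 (2.19-fold lower, adjusted p = 0.0219), and H3C10 had 430, 197 and 251 in KY170R and 150.3, 109 and 74.0 in KY170 (1.86-fold lower, adjusted p = 0.0384). For both of these genes the KY170R array at 24 h was above the KY170 array at 0 h, since the lines differed at 0 h already. Both calls were lost with 1 prior variance, with the floor at 2 times the limit and without a term for the line. The call of H3C10 was also lost without the filter. H4C11 had 36.0, 15.9 and 1.48 in KY170R and 17.8, 1.77 and -0.57 in KY170, at least 2.34-fold lower at 24 h (adjusted p = 0.0350), but it too was tested only through its 0 h values.

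**Figure D2:**
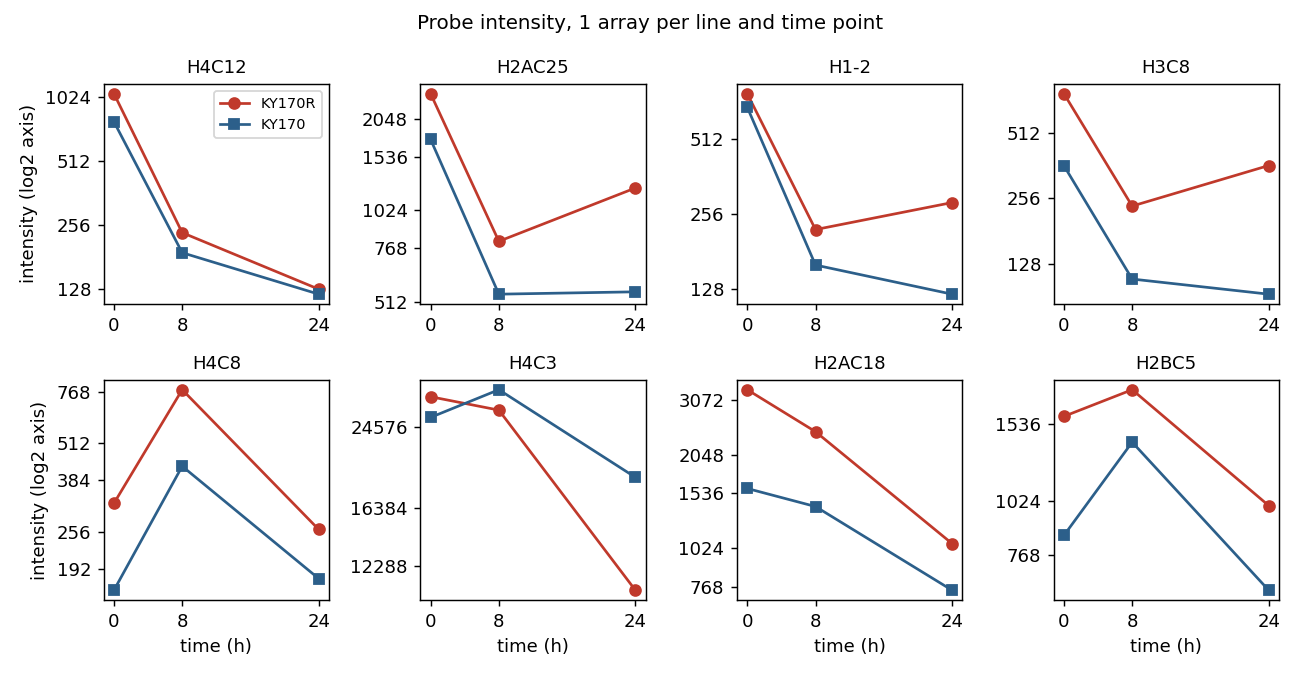
Probe intensity (log2 axis, arbitrary units, scaled separately for each gene) against time after irradiation for 8 histone genes in KY170R (circles) and KY170 (squares), each point 1 array. The upper 4 are those with the smallest adjusted p at 8 h among genes that fell and were above the limit on all arrays, and the lower 4 those with the smallest adjusted p between 24 and 8 h, of which H4C8 peaked at 8 h in both lines.

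At 8 h 28 of the 38 tested genes were lower than at 0 h, most of them without passing the test. The median change was -0.66 on the log2 scale, against 0.003 over all tested probes. Falls were called for 10 of the 38 genes, which is 26.3% against 17.7% of all tested probes. Rises were called for 2, against 18.2% of all tested probes. Without H2AC13, H2BC9, H4C11 and H4C2, 8 of 34 genes fell at 8 h and 2 rose, with a median of -0.43. Instead of 12 genes, 7 were called at 8 h with the floor at 2 times the limit or without a term for the line. Both 8 h arrays lay below both 0 h arrays for 18 genes, against 30.8% of all tested probes. These 18 included H2AC13, H2BC9, H4C11 and H4C2, whose selection favoured this pattern. H4C8, an H4 gene, rose to 780 and 428 at 8 h in KY170R and KY170, against 320 and 162 at 0 h (2.53-fold, log2 1.34 ± 0.27 SE, adjusted p = 0.00214, limma). By 24 h it had 261 and 178 in KY170R and KY170, 2.68-fold lower than at 8 h (adjusted p = 0.00994), and its difference from 0 h was -0.08 ± 0.27 SE on the log2 scale. H3C13, a HIST2 gene near the limit, rose to 51.5 and 52.4 at 8 h in KY170R and KY170, against 22.9 and 11.2 at 0 h (3.23-fold, adjusted p = 0.0101), and had 32.9 and 24.7 at 24 h. Both genes had both 8 h arrays above both 0 h arrays. The rise of H4C8 missed the threshold when the line was left out of the fit (adjusted p = 0.0522). A second H4C8 probe was below the limit on every array and could not be used to check it.

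Between 8 and 24 h, 7 of the 38 genes fell and none rose, which is 18.4% lower, against 4.89% lower and 5.82% higher over all tested probes. They were H2AC18, H2AC20, H2AC8, H2BC5, H2BC8, H4C3 and H4C8. H2BC5 was the only one of the 7 without another call, with 1604, 1848 and 998 in KY170R and 852, 1398 and 637 in KY170 at 0, 8 and 24 h (2.02-fold lower at 24 h than at 8 h, adjusted p = 0.0170). Its second measurable probe had 1192, 1057 and 736 in KY170R and 649, 1084 and 503 in KY170. All 7 calls were lost with a single prior variance for all probes, with the floor at 2 times the limit or without a term for the line, and over all tested probes these fits likewise called 0 between 8 and 24 h.

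At 24 h 17 of the 38 genes were not called as lower, although 34 of the 38 had a log2 change below 0. H2BC12, an H2B gene, had 7683, 9959 and 5978 in KY170R and 4963, 6564 and 5434 in KY170 at 0, 8 and 24 h, with a change at 24 h of -0.12 ± 0.17 SE on the log2 scale. H2AC6 had 726, 612 and 972 in KY170R and 428, 301 and 286 in KY170 (log2 -0.08 ± 0.28 SE at 24 h), and H2BC21 had 244, 264 and 282 in KY170R and 117, 133 and 59.3 in KY170 (log2 -0.38 ± 0.36 SE). None of these 3 changes passed the test, and the error for H2BC21 still allows a fall. H2BC5, described above, had a log2 change of -0.55 ± 0.22 SE at 24 h against 0 h (adjusted p = 0.0606). H2AC11, an H2A gene, was the 1 gene that rose at 24 h, with 51.6, 90.2 and 116.8 in KY170R and 26.8, 32.8 and 50.0 in KY170 (2.06-fold, log2 1.04 ± 0.38 SE, adjusted p = 0.0424). The call was lost without the filter on low values (adjusted p = 0.160) and without a term for the line (adjusted p = 0.225), and a second H2AC11 probe was below 0 on all 6 arrays.

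Dim probes made up the rest of the uncalled genes. H3C11 had 61.5, 29.7 and 26.7 in KY170R and 47.8, 40.7 and 25.0 in KY170, with an adjusted p of 0.0538 at 24 h. H2BC14 had 48.2, 22.3 and 27.1 in KY170R and 45.6, 68.3 and 14.2 in KY170, and H3C1 had 39.1, 22.9 and 16.8 in KY170R and 43.4, 20.0 and 30.7 in KY170. The 24 h arrays of these 3 genes were below both 0 h arrays, within an error too wide for a call. H3C4 had 44.5, 43.3 and 26.8 in KY170R and 37.3, 33.5 and 23.3 in KY170. H2BC15 had 28.6, 19.1 and 25.3 in KY170R and 26.6, 15.4 and 22.8 in KY170, and H2BC18 had 27.8, 43.2 and 31.5 in KY170R and 27.5, 43.6 and 25.5 in KY170. H1-1, H1-3, H3C14 and H4C2 were below the limit on 1 to 3 arrays and were called in no comparison, with H1-1 the highest of them at 24 h (log2 1.02 ± 0.43 SE, adjusted p = 0.0698).

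Many H2A and H2B genes stand head to head and share the DNA between their starts as a promoter. In RefSeq, 11 such pairs among the 63 genes had starts within 500 bases of each other, 194 to 248 bases apart. Both genes were above the limit on all arrays in 4 pairs, 1 gene in 5 pairs and neither in 2. H2AC8 and H2BC8, 233 bases apart, both fell at 24 h against 0 h and against 8 h. H2AC25 and H2BC26, 230 bases apart, both fell at 8 h and at 24 h. H2AC20 fell at 24 h while H2BC21, 236 bases away, did not pass the test. H2AC11 and H2BC11, 248 bases apart, were called in opposite directions at 24 h, with log2 changes of 1.04 ± 0.38 SE for H2AC11 and -1.20 ± 0.25 SE for H2BC11. The difference within a pair was not tested, since it is between 2 probes.

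Genes outside the replication-dependent set were read from lists of their own, whose counts at 24 h stand against 23.1% of all tested probes that rose and 22.0% that fell. The replication-independent variants are made throughout the cell cycle, mostly from polyadenylated mRNAs, and at 24 h 3 of the 10 tested fell and 1 rose, so that the number that fell was near the share of all probes. H1-10, a linker histone, had 3840, 1028 and 876 in KY170R and 2582, 773 and 725 in KY170 at 0, 8 and 24 h (log2 -1.98 ± 0.21 SE at 24 h, adjusted p = 5.8e-05). H2AJ ran likewise, with 4238, 1270 and 1017 in KY170R and 3233, 1100 and 850 in KY170 (adjusted p = 4.6e-05). H2AX, the variant phosphorylated at DNA breaks, fell at 24 h (log2 -0.86 ± 0.22 SE, adjusted p = 0.00701), whereas MACROH2A1 rose (log2 0.41 ± 0.13 SE, adjusted p = 0.0231).

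Of 31 tested genes for histone mRNA synthesis, processing and decay, 10 rose and 6 fell at 24 h, with a median log2 change of -0.07, against 23.1% of all tested probes that rose and 22.0% that fell. NPAT, the coactivator of histone transcription, had 16.9, 96.2 and 162.9 in KY170R and 7.7, 117.6 and 137.0 in KY170 (log2 3.46 ± 0.39 SE at 24 h with the KY170 value at 0 h raised to the limit, adjusted p = 7.4e-05), and SLBP, which binds the stem-loop, had 1196, 1895 and 1880 in KY170R and 1096, 2575 and 2032 in KY170 (adjusted p = 0.0114). Both rose while the median histone gene was lower. LSM10, a subunit of the U7 snRNP that directs the 3' end cut, fell (log2 -1.22, adjusted p = 0.00497), as did the cleavage factor subunit CPSF1 (log2 -1.38, adjusted p = 7.2e-04). CPSF3 (log2 1.02, adjusted p = 0.0113, limma), PCF11 (log2 2.05, adjusted p = 7.4e-04), FIP1L1 (log2 0.68) and NCBP1 (log2 0.92) of the same list rose. The uridylyltransferases TUT4 and TUT7 and the exonuclease XRN1, which act in mRNA decay, rose (log2 1.52 for TUT4, 1.62 for TUT7 with its KY170R value at 0 h raised to the limit, and 1.67 for XRN1). UPF1, on the same list, was not called at 24 h (log2 -0.51 ± 0.23 SE). Of 9 tested polyadenylation factors of other mRNAs, 4 rose and 1 fell, with a median log2 change of 0.66. This stands against 23.1% and 22.0% of all tested probes, and a list this short gives only a rough share.

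Among 20 tested histone chaperones, 5 rose and 4 fell at 24 h, close to the 23.1% and 22.0% of all tested probes. ASF1B, the H3-H4 chaperone paralog tied to proliferation, had 1197, 345 and 312 in KY170R and 762, 312 and 479 in KY170 (log2 -1.31 at 24 h, adjusted p = 0.00399), while its paralog ASF1A rose (log2 1.52, adjusted p = 5.7e-04). Of 35 tested S phase genes, 16 rose and 6 fell at 24 h, against 23.1% and 22.0% of all tested probes, with a median of 0.35. RRM2, a subunit of ribonucleotide reductase, had 699, 4894 and 1912 in KY170R and 707, 6157 and 3150 in KY170 (log2 1.80 at 24 h, adjusted p = 9.7e-05), and cyclin A2 (CCNA2) rose by 1.51, whereas the licensing factor CDT1 fell by 1.09 on the log2 scale. Among 7 tested G1 arrest genes, RB1, RBL2 and CCNG2 rose and none fell, again against 23.1% and 22.0% and in a short list. The rest were not called at 24 h, among them CDKN1A (log2 -0.17 ± 0.23 SE). CDKN1A had fallen at 8 h (log2 -1.35, adjusted p = 8.9e-04, limma). The parts that any of these genes play in the histone changes were not tested.

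**Figure D3:**
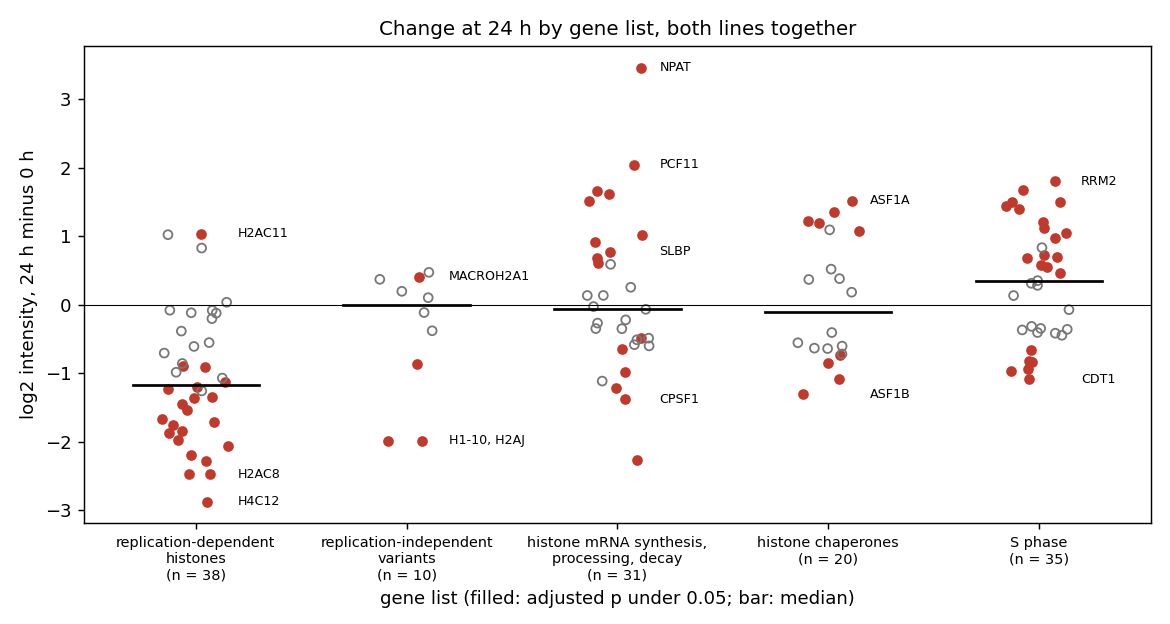
Log2 change at 24 h against 0 h, both lines fitted together, for each tested gene of 5 lists (filled points passed adjusted p under 0.05, open points did not, bars are medians; the horizontal spread of points is for legibility only). The median was -1.17 for the replication-dependent histone genes and 0.35 for the S phase genes.

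The second question was whether histone mRNA differed between the radioresistant line and its parent. KY170R had more of it for most genes at the same time point. Of 38 tested genes, 6 were higher in KY170R and none was lower (limma, adjusted p under 0.05), which is 15.8% higher, against 1.68% higher and 1.40% lower over all tested probes. The median difference was 0.49 on the log2 scale (-0.001 over all tested probes), and 17 genes had an unadjusted p under 0.05. KY170R was higher at all 3 time points for 22 of the 38 genes, against 16.6% of all tested probes, and lower at all 3 for 1 gene, H2BC7, against 16.9%. Over the 30 genes above the limit on all arrays, the median log2 difference was 0.81 at 0 h, 0.38 at 8 h and 0.53 at 24 h, with 28, 23 and 26 genes higher in KY170R.

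The 6 genes came from 4 classes and both large clusters. H2BC21, an H2B gene, was 2.70-fold higher in KY170R (log2 1.43 ± 0.29 SE, adjusted p = 0.0215), with ratios of 2.08, 1.99 and 4.75 at 0, 8 and 24 h. H3C8 was 2.63-fold higher (log2 1.40 ± 0.25 SE, adjusted p = 0.0102), with ratios of 2.15, 2.17 and 3.92. H3C10 was 2.59-fold higher (adjusted p = 0.0154), with ratios of 2.86, 1.80 and 3.39, and H4C14 was 2.52-fold higher (adjusted p = 0.0309), with ratios of 2.04, 1.86 and 4.24. In H2BC21, H3C8, H3C10 and H4C14 the highest ratio was that at 24 h. H2AC6 was 2.27-fold higher (adjusted p = 0.0158), with ratios of 1.70, 2.03 and 3.40, and H2AC18 was 1.72-fold higher (adjusted p = 0.0344), with ratios of 2.08, 1.74 and 1.41 that ran the other way. In H2AC18, H3C10, H3C8 and H4C14 the fall at 24 h was called as well.

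None of these 6 calls was made with a single prior variance, with the floor at 2 times the limit, without a term for time, without the 0 h arrays or without the 8 h arrays, and 2 of the 6 were kept without the 24 h arrays. The direction of each of the 6 was the same in every one of these fits. The cyclin-dependent kinase inhibitor CDKN1A was the only gene called between the lines among the other lists, with 6268, 3315 and 7901 in KY170R and 4555, 1331 and 2864 in KY170 at 0, 8 and 24 h (log2 1.08, adjusted p = 0.00932).

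**Figure D4:**
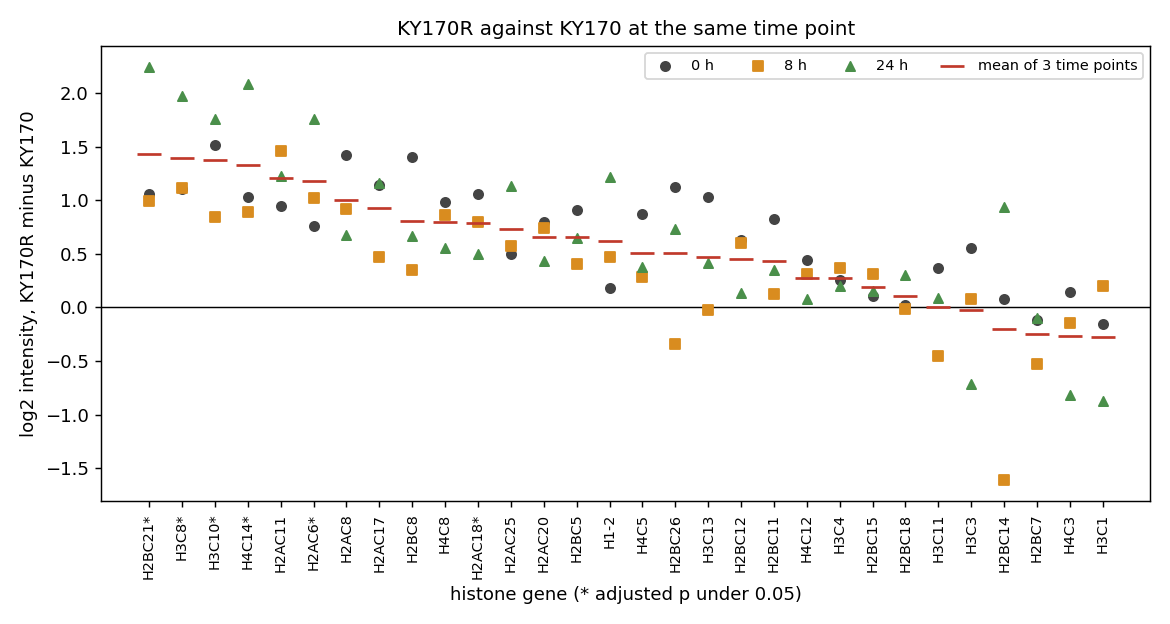
Log2 intensity in KY170R minus that in KY170 at 0 h (circles), 8 h (squares) and 24 h (triangles), with the mean of the 3 (red bars), for the 30 histone genes above the limit on all 6 arrays, ordered by that mean. Points above 0 are higher in KY170R, as for 28 genes at 0 h, 23 at 8 h and 26 at 24 h, and asterisks mark the 6 genes with adjusted p under 0.05.

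Finally, the change after 0 h, taken as the mean of 8 and 24 h minus 0 h, was compared between KY170R and KY170. None of the 38 genes passed the test of this interaction and none had an unadjusted p under 0.05, while 294 of all 20620 tested probes had one and 0 passed adjustment (limma). The errors were wide. H4C12 differed by -0.24 ± 0.81 SE, H3C8 by 0.44 ± 0.69 SE, H1-2 by 0.67 ± 0.65 SE and H4C3 by -0.63 ± 0.77 SE on the log2 scale. The 8 and 24 h arrays of a line stood in for replicates here, so any change between these times counted as error. Differences between the lines of this size could therefore not be seen in this fit. The largest values were -1.11 ± 0.66 SE for H4C2, with 29.3, 3.17 and 8.98 in KY170R and 15.7, 14.5 and 6.98 in KY170, and 0.85 ± 0.70 SE for H2AC13. Taken line by line, the median change of the 30 genes was -0.76 at 8 h and -1.15 at 24 h in KY170R, and -0.35 at 8 h and -1.05 at 24 h in KY170.

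The genes outside the set whose profile over the 6 arrays was most like the mean of the 30 histone genes, of 9644 genes compared, were PRPF31 (Pearson r = 0.998), POLM (0.994), MANBAL (0.993), PIP4K2C (0.993) and MSX1 (0.993). PRPF31 had 3945, 3214 and 2884 in KY170R and 3260, 2948 and 2347 in KY170 at 0, 8 and 24 h, and POLM had 356, 189 and 142 in KY170R and 184, 160 and 79.8 in KY170. With 6 points and so many genes compared, these values are a description only.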

How the data were processed

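Gene expression was measured by the authors on Illumina Human-6 V3 bead arrays with BeadStudio (version not stated). The deposited values are intensities on a linear scale, with background subtracted and arrays brought to a common scale by the authors before deposit, by a method not given. About 30% of values are below 0 (29.9% on each array). The study states that profiling was in triplicate, and whether a deposited column pools repeats is not given. Such pooling would hide the spread between repeats, and between-array scaling would hide a shift shared by all genes.

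Values were raised to the limit of 10.8 and log2 transformed. Probes with a mean at or above it (20620) were fitted with limma 3.58.1 in R 4.3.3 (trended, robust, two-sided), with terms for time and line and 2 residual degrees of freedom, and Benjamini-Hochberg adjustment over all of them. A fold against arrays that were all below the limit is a bound. Lines stand in for replicates of a time and times for replicates of a line, so p-values cover no spread between repeats of a condition. The variance of each probe was also drawn toward that of probes of similar intensity (median prior degrees of freedom 10.2, against 2 residual). An SE can therefore be smaller or larger than the gene's own arrays alone would give. With 1 array each, the number of arrays limits the precision. Named with values were genes above the limit on all arrays, those called, and the 3 largest differences in each direction. The genes and lists were chosen with earlier results of these data known. Gene symbols came from platform annotation (1 symbol for 27578 probes, several for 13, none for 21212), updated through RefSeq. The fits were tested on simulated data. Alternatives changed the floor, filter, prior variance, normalization and terms, or left out a time point. The second line pair of the study, TE13R and TE13, was not analysed here.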

Additional observations from a re-analysis of the deposited data

How the results depend on the processing

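No direction of a called histone gene turned under any alternative, and 8 of the 22 calls at 24 h and 2 of the 12 at 8 h were tested and held under every one of them, whereas none of the 7 calls between 24 and 8 h and none of the 6 between the lines did. H2BC7 and H2BC9 at 24 h and H2BC9 and H3C13 at 8 h held wherever they were tested, but missed the filter of 4 times the limit. H2BC9 was tested only through its 0 h arrays, which favoured a fall, so that its calls remain a description. With the floor at 2 times the limit, which put 1006 of 20620 probes at the floor on all 6 arrays, 0 genes were called between the lines, 7 at 8 h, 12 at 24 h (median -0.93) and 0 between 24 and 8 h, and 3 in the test of the interaction (H2AC13, H4C2 and H4C11, each above the limit on 3 arrays). With 1 prior variance, 0 were called between the lines and 0 between 24 and 8 h. Over all tested probes, the calls between the lines were 346 higher and 288 lower, against 60 and 40 with 1 prior variance, 2 and 6 without a term for time, 219 and 188 with a floor of 1 and 0 with the floor at 2 times the limit; between 24 and 8 h they were 1201 higher and 1009 lower, against 0 with 1 prior variance and 840 and 715 with a floor of 1. Leaving out 1 time point gave 0 to 4 histone genes called between the lines, 0 without the 0 h arrays, 0 without the 8 h arrays and 4 without the 24 h arrays, and a median of 0.35 to 0.62. Without a term for time, 0 genes were called between the lines, and without a term for the line 7 were called at 8 h and 0 between 24 and 8 h. A floor of 1 gave a median at 24 h of -1.30. Without the filter, 63 genes entered and 21376 of 48790 probes were at the floor on all arrays; the median was 0.15 between the lines, -0.11 at 8 h, -0.35 at 24 h, -0.003 between 24 and 8 h and -0.000 for the interaction, where 6 genes were called (H1-5, H4C9, H4C4, H3C12, H2BC17 and H2AC4, each above the limit on 1 or 2 arrays). Asking for a mean of 4 times the limit gave a median of 0.80 between the lines and -1.35 at 24 h. The cause of these changes was not tested beyond the numbers of probes at the floor. A second pass of quantile normalization kept every call. The terms for line and time already pair the arrays, so no further paired fit was made. Leaving out the 4 genes tested only through their 0 h arrays, chosen after seeing the data, gave 19 calls at 24 h and 10 at 8 h. Genes near the background limit have bounds or wide errors, and a failure to call them does not show that they did not change.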
